A study of Homo sapiens with 8 samples.

Results

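The 10 genes described here are widely read as markers of epithelial or mesenchymal state and were followed across all 8 libraries of the series: CDH1, CDH2, EPCAM, ESRP1, SNAI2, ZEB1, VIM, FN1, SPARC and TAGLN. They were taken by name from a table of 40295 gene IDs, and each of the 10 symbols had 1 ID. After a filter on low counts, 8 of the 10 were among the 16519 genes tested. CDH2 and SNAI2 did not pass. SPARC passed through the knock-in libraries alone, so its comparisons with wild-type libraries are given as a description, with no p.

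The cells were HCT116, a human colorectal cancer line, and a derivative with MED12 E33Q knocked in by CRISPR-Cas9. MED12 belongs to the kinase module of Mediator, where it activates CDK8. The groups were knock-in cells given interferon-gamma (IFN-γ, 5 ng/ml) for 24 h, untreated knock-in cells, wild-type cells given the same treatment and untreated wild-type cells, with 2 libraries of rRNA-depleted total RNA each. The study calls the libraries of a group biological replicates. Untreated libraries are labelled 0 h, so IFN-γ and the hours between the harvests cannot be told apart. A single knock-in line is named, so E33Q and differences between clones cannot be told apart either.

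Epithelial cells are joined by adherens junctions built on E-cadherin (CDH1), carry the adhesion protein EPCAM, and splice their transcripts with ESRP1. In an epithelial-mesenchymal transition, transcription factors of the SNAI, ZEB and TWIST families repress such genes, while N-cadherin (CDH2), vimentin (VIM), fibronectin (FN1) and other cytoskeletal and matrix genes come up. Carcinoma lines often hold both sets of transcripts, and intermediate states are common.

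Total estimated counts lay between 20901909 and 28045842 per library. IFN-γ treatment was visible in IRF1, a transcription factor of the interferon response, with 335.6 to 361.1 CPM (counts relative to the scaled library size) in the 4 treated and 10.3 to 13.6 CPM in the 4 untreated libraries, and in GBP1, an interferon-induced GTPase, with 89.7 to 108.3 CPM in treated libraries and 0.223 CPM or less in untreated ones. MED12 had 33.3 and 30.1 CPM in treated knock-in, 12.9 and 11.2 CPM in untreated knock-in, 34.3 and 28.3 CPM in treated wild-type and 23.1 and 14.2 CPM in untreated wild-type cells, and its level does not check a point change. The mean GC content of the counted transcripts was 48.33 to 48.52% in treated and 45.65 to 47.05% in untreated libraries. Spike-in RNA made up 0.228 to 0.271% of counts in treated and 0.110 to 0.141% in untreated libraries. Transcripts of plasma cells were present in 4 libraries, namely both untreated wild-type libraries and replicate 2 of each knock-in group. The part of these shifts in the results was not tested. Values with the trend on GC content and transcript length removed, or scaled to the spike-ins, are given beside calls of the named genes that they end. Fewer cells of a type and less RNA per cell cannot be told apart in such bulk libraries.

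Per transcript length (TPM computed here from the longest coding transcript), EPCAM and ESRP1 led the 10 genes in every group. EPCAM stood at 216.7 to 220.3 TPM in treated and 192.2 to 246.4 TPM in untreated knock-in cells, and at 362.1 to 369.0 TPM in treated and 275.1 to 321.3 TPM in untreated wild-type cells. CDH1 stood at 26.9 and 28.4 TPM in treated and 11.4 and 11.1 TPM in untreated knock-in cells, and at 38.8 and 33.8 TPM in treated and 16.4 and 12.5 TPM in untreated wild-type cells. Of the mesenchymal members, VIM and TAGLN came next in knock-in cells, above CDH1 when untreated and overlapping it with IFN-γ, where TAGLN ranged from 27.3 to 29.2 TPM and VIM from 28.3 to 58.1 TPM. In treated wild-type cells TAGLN (8.83 and 9.44 TPM) and VIM (7.03 and 4.88 TPM) stood below CDH1. In untreated wild-type cells VIM, at 29.7 and 32.2 TPM, stood above CDH1, and TAGLN, at 7.11 and 5.74 TPM, below it. ZEB1 and FN1 lay at 6.68 TPM or less in every library. The defining epithelial transcripts CDH1 and EPCAM were present in every library of the 2 lines, which are labelled as colon.

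**Figure D1:**
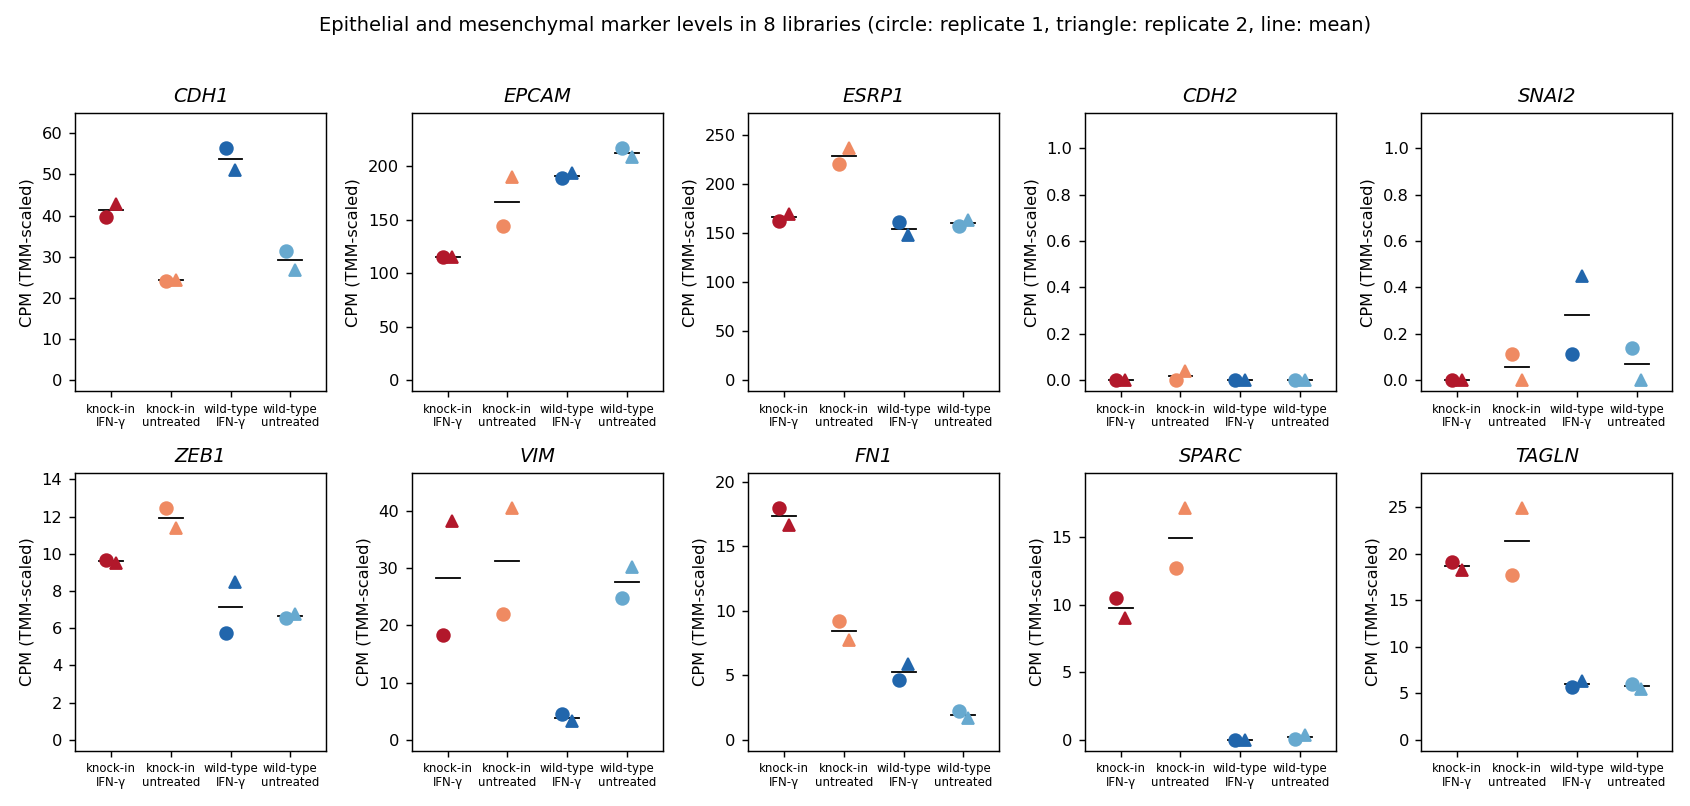
Level of each of the 10 genes in CPM after trimmed-mean scaling, by group. Circles are replicate 1, triangles replicate 2 and the bar is the mean of the 2 libraries. FN1, SPARC, TAGLN and ZEB1 are higher in all 4 knock-in libraries than in all 4 wild-type libraries, CDH1 is higher with IFN-γ in both lines, and the replicates of VIM are far apart in the knock-in groups. How many of all genes separate the lines in this way was not counted.

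The knock-in line was set against the wild-type line with and without IFN-γ. With IFN-γ, VIM, FN1 and TAGLN were called higher and EPCAM lower in knock-in cells by edgeR's quasi-likelihood test (Benjamini-Hochberg adjusted p under 0.05 over all tested genes), where 1.63% of all genes were called higher and 1.28% lower. Without IFN-γ, ESRP1, FN1 and TAGLN were called higher, and none of the 8 tested members was called lower, where 4.26% of all genes were called higher and 4.17% lower. At an unadjusted p under 0.05 there were 6 of 8 members in each comparison, beside 2562 of 16519 genes with and 4458 without IFN-γ. DESeq2 called 4 members higher and 1 lower with IFN-γ, where it called 475 of all genes higher and 406 lower. Without IFN-γ it called 5 members higher and 0 lower, where 1075 of all genes were called higher and 1216 lower. SPARC passed the threshold in both comparisons and is in the counts of members given here. It could only enter the test by being high in knock-in cells, so it is not read as a call. FN1 and TAGLN were the members called in both comparisons. Without both replicate 2 libraries of the knock-in line, 3 members were called higher and 0 lower with IFN-γ, and 3 higher and 0 lower without it.

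SPARC, a matrix-binding glycoprotein also known as osteonectin (chromosome 5, 151661096 to 151687165 on GRCh38, GENCODE release 29), showed the widest difference between the lines. Its estimated counts were 286 and 225 in treated knock-in, 228 and 418 in untreated knock-in, 0 and 0 in treated wild-type and 1 and 7 in untreated wild-type cells. These counts correspond to 8.98 to 17.15 CPM in the knock-in libraries and to 0.351 CPM or less in the wild-type libraries, with no overlap. With IFN-γ SPARC was at least 82.1-fold higher in knock-in cells, taking 3 counts per library as the floor of the wild-type group. Without IFN-γ the ratio of knock-in to wild-type was 79.6 (95% counting interval 40.2 to 185). Summed over 10 fibroblast markers the level was 6.01 and 7.66 CPM in treated knock-in, 4.68 and 4.43 CPM in untreated knock-in, 6.03 and 6.21 CPM in treated wild-type and 5.195 and 4.16 CPM in untreated wild-type cells, with LUM at 0 in all 8 libraries. Summed over 8 endothelial markers it was 8.46 and 8.62 CPM in treated and 7.24 and 6.85 CPM in untreated knock-in cells. In wild-type cells it was 6.18 and 4.98 CPM when treated and 5.38 and 4.56 CPM when untreated. Every knock-in library thus stood above every wild-type library in the endothelial sum, and a link to SPARC was not tested. Of the 4 endothelial markers tested, edgeR called 0 in either line comparison. CDH5 was at 0 in 7 of the 8 libraries, and PECAM1 at 0.601 to 1.477 CPM in all 8.

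FN1, which encodes the matrix protein fibronectin (chromosome 2, 215360440 to 215436172), moved with both the line and the treatment. It had 18.0 and 16.6 CPM in treated knock-in cells, 9.19 and 7.71 CPM in untreated knock-in cells, 4.62 and 5.88 CPM in treated wild-type cells and 2.21 and 1.70 CPM in untreated wild-type cells. Every knock-in library stood above every wild-type library, and within each line the treated libraries stood above the untreated ones. FN1 was higher in knock-in cells by a log2 fold change of 1.72 ± 0.23 (standard error) with IFN-γ (adjusted p = 0.00382, edgeR) and by 2.10 ± 0.25 without it (adjusted p = 0.00173). The call with IFN-γ was lost without treated knock-in library 1 (1.66, adjusted p = 0.0516) and without both knock-in replicate 2 libraries (1.78, adjusted p = 0.056).

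The 250 bases upstream of the RefSeq start of SPARC and FN1 (GRCh38.p14) are shown because these genes separated the lines, with matches to searched motifs in capitals. SPARC is read from the minus strand at chr5:151686916-151687165, where CATTCC is the reverse complement of the TEAD motif GGAATG, and FN1 from the minus strand at chr2:215436069-215436318, where TGACGTCA is the cyclic AMP response element.
SPARC: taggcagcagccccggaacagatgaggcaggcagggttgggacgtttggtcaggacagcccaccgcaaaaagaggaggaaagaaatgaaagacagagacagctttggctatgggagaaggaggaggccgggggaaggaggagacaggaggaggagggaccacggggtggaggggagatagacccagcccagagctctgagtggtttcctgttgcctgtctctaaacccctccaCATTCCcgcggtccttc
FN1: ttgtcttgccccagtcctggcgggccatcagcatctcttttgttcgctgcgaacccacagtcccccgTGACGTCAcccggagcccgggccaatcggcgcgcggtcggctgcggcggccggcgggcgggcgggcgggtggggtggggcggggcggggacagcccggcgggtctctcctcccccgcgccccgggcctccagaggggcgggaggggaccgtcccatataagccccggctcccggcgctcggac
Also searched on both strands were the E-box CAGGTG bound by SNAI and ZEB factors, the AP-1 motif TGANTCA, the interferon-gamma activated site TTCNNNGAA and TATAAA, of which none matched these 2 windows. The match in SPARC lies 17 bases and that in FN1 183 bases before the start, counted to the first base of the match. Of 35116 RefSeq promoter windows of the same length, 11.9% held GGAATG, 1.65% TGACGTCA, 17.5% CAGGTG, 6.57% TGANTCA, 6.57% TTCNNNGAA and 10.7% TATAAA. Entries for VIM, ZEB1 and CDH2 were also searched. The VIM window held none of the 6 motifs, 2 of 7 ZEB1 windows held the E-box, and 1 of 2 CDH2 windows held TGANTCA and TATAAA. CDH1, EPCAM, ESRP1, SNAI2 and TAGLN were not searched.

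TAGLN, which encodes the actin-binding protein transgelin (SM22), stood at 19.1 and 18.2 CPM in treated knock-in, 17.7 and 24.95 CPM in untreated knock-in, 5.68 and 6.33 CPM in treated wild-type and 6.02 and 5.46 CPM in untreated wild-type cells. The lines did not overlap, and treated and untreated libraries did within each line. It was higher in knock-in cells by 1.64 ± 0.21 on the log2 scale with IFN-γ (adjusted p = 0.00327, edgeR) and by 1.89 ± 0.21 without it (adjusted p = 0.00139), and both calls held under all 16 alternatives run. TAGLN shares 446 bases of exon with PCSK7 on the opposite strand, and no strand setting of the counting is recorded in the labels, so its level is uncertain. PCSK7 had 51.3 and 49.4 CPM in treated knock-in, 24.9 and 22.3 CPM in untreated knock-in, 51.8 and 49.1 CPM in treated wild-type and 36.6 and 26.6 CPM in untreated wild-type cells, and its part in the TAGLN level was not tested. CDH1, CDH2, ZEB1, VIM and SPARC also share between 136 and 641 bases of exon with annotated antisense transcripts that were not analysed here, and reads of such pairs could not be told apart without strand.

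VIM, the intermediate filament protein vimentin (chromosome 10, 17228259 to 17237593), did not follow the groups alone. It had 18.3 and 38.2 CPM in treated knock-in, 21.95 and 40.5 CPM in untreated knock-in, 4.46 and 3.23 CPM in treated wild-type and 24.8 and 30.2 CPM in untreated wild-type cells. In the same libraries the summed level of 16 plasma cell markers was 3.41 and 284.3 CPM in treated knock-in, 2.005 and 359.8 CPM in untreated knock-in, 3.74 and 3.23 CPM in treated wild-type and 364.7 and 411.4 CPM in untreated wild-type cells. Within each knock-in group the library with the plasma cell signal held more VIM, 2.09 times as much with IFN-γ and 1.85 times as much without it.

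JCHAIN, the joining chain of secreted antibody, had 0.183 and 113.9 CPM in treated knock-in, 0.0557 and 158.2 CPM in untreated knock-in, 0 and 0 CPM in treated wild-type and 163.0 and 157.7 CPM in untreated wild-type cells, and IGKC, an antibody light chain, was at 0 in the 4 libraries with little of the signal. Between 2 and 3 of the 16 plasma cell markers were at 0 counts in libraries with the signal and between 7 and 9 in those without it. A list of 13 leukocyte markers summed to 26.9 to 36.0 CPM in the 4 libraries with the signal. In the others that sum was 10.7 CPM in treated and 14.4 CPM in untreated knock-in cells, and 6.18 and 4.57 CPM in treated wild-type cells.

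In the 4 libraries with little of the signal, VIM stood at 18.3 CPM in treated and 21.95 CPM in untreated knock-in cells, against 4.46 and 3.23 CPM in treated wild-type cells. In the 4 libraries with it, VIM stood at 38.2 CPM in treated and 40.5 CPM in untreated knock-in cells, against 24.8 and 30.2 CPM in untreated wild-type cells. With IFN-γ VIM was called higher in knock-in cells (2.87 ± 0.41, adjusted p = 0.00541, edgeR), and still so without both knock-in replicate 2 libraries (2.25, adjusted p = 0.00722). The call depended on treated wild-type library 2 (without it 2.66, adjusted p = 0.0811). Without IFN-γ VIM was not called (0.19 ± 0.37, adjusted p = 0.787), and the difference was −0.32 without both knock-in replicate 2 libraries (adjusted p = 0.711). Both untreated wild-type libraries carry the signal, so the VIM level of untreated wild-type cells without it was not measured.

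**Figure D2:**
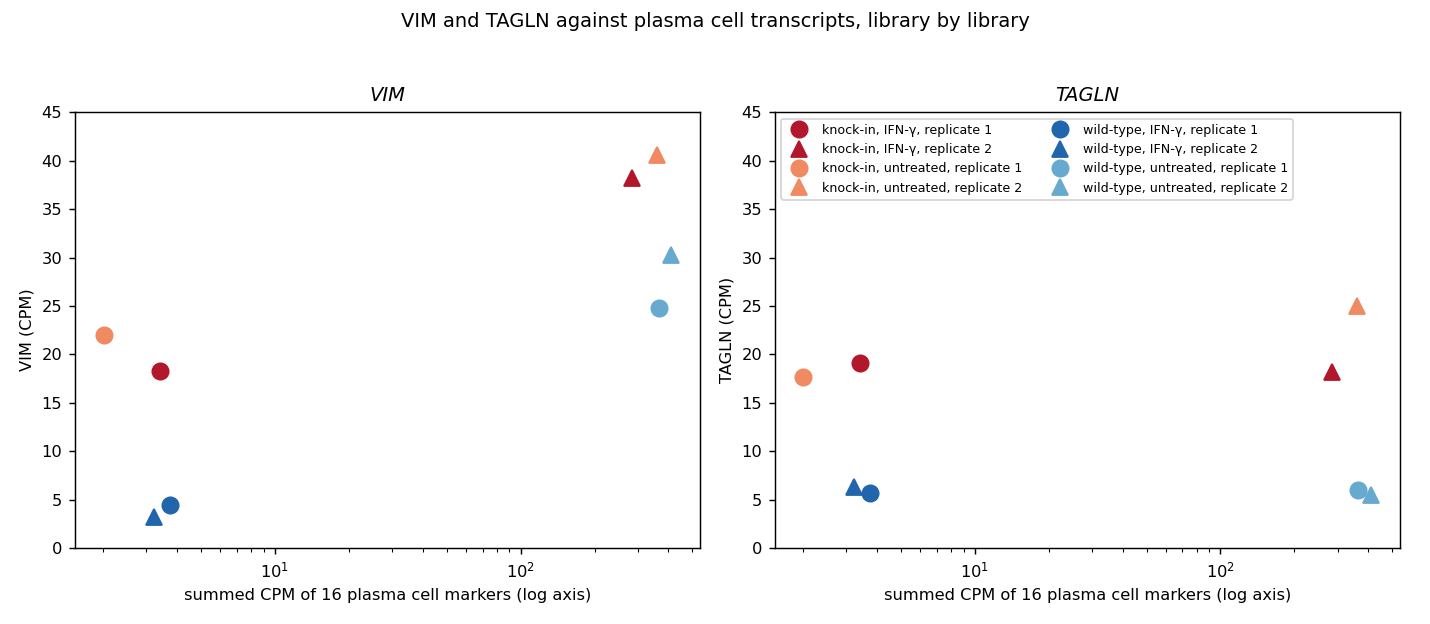
VIM (left) and TAGLN (right) in CPM against the summed CPM of 16 plasma cell markers on a log axis, 1 point per library (circles replicate 1, triangles replicate 2). The 4 libraries on the right of each panel carry the plasma cell signal, at 284.3 to 411.4 CPM against 2.005 to 3.74 CPM in the other 4. VIM is higher in them within each line, while TAGLN is at 5.46 to 6.33 CPM in all 4 wild-type libraries. In knock-in cells TAGLN with and without the signal is at 18.2 and 19.1 CPM when treated and 24.95 and 17.7 CPM when untreated.

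EPCAM, an adhesion protein of epithelia (chromosome 2, 47345158 to 47387601) had 114.8 and 115.1 CPM in treated knock-in, 143.7 and 189.3 CPM in untreated knock-in, 189.1 and 193.1 CPM in treated wild-type and 216.7 and 208.5 CPM in untreated wild-type cells. All knock-in libraries stood below the wild-type libraries of the same treatment. With IFN-γ EPCAM was called lower in knock-in cells (−0.73 ± 0.15, adjusted p = 0.0295, edgeR), and without IFN-γ it was not (−0.35 ± 0.14, adjusted p = 0.155). The call with IFN-γ was lost without treated knock-in library 1 (−0.73, adjusted p = 0.234) or 2 (−0.73, 0.257) and without treated wild-type library 1 (−0.74, 0.177) or 2 (−0.72, 0.212), with nearly the same difference, and under spike-in scaling (−0.79, 0.115). With the GC and length trend removed EPCAM was called lower also without IFN-γ (−0.48, adjusted p = 0.0233).

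CDH1, E-cadherin (chromosome 16, 68737225 to 68835548), had 39.8 and 42.8 CPM in treated knock-in, 24.2 and 24.3 CPM in untreated knock-in, 56.4 and 51.1 CPM in treated wild-type and 31.4 and 26.9 CPM in untreated wild-type cells. Knock-in libraries stood below the wild-type libraries of the same treatment, but CDH1 was called in neither line comparison (−0.38 ± 0.14, adjusted p = 0.239, with IFN-γ and −0.27 ± 0.15, adjusted p = 0.275, without it, edgeR).

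ESRP1, an epithelial splicing regulator on chromosome 8 (94641074 to 94707466), had 162.8 and 169.1 CPM in treated knock-in, 220.7 and 236.6 CPM in untreated knock-in, 161.1 and 147.6 CPM in treated wild-type and 156.8 and 163.1 CPM in untreated wild-type cells. In CPM the untreated knock-in libraries stood apart from the other 6, which lay within 147.6 to 169.1 CPM. Per transcript length they did not, as ESRP1 had 141.5 and 144.3 TPM in treated and 133.7 and 139.5 TPM in untreated knock-in cells. In wild-type cells ESRP1 had 142.3 and 125.4 TPM when treated and its lowest values, 105.3 and 97.5 TPM, when untreated. It was called higher in untreated knock-in cells (0.52 ± 0.12, adjusted p = 0.0307, edgeR) and not with IFN-γ (0.10 ± 0.12, adjusted p = 0.752). The untreated call was lost under spike-in scaling (0.19, adjusted p = 0.491) and in 6 of the 8 fits that left out a library. These were the fits without treated knock-in library 1 (0.52, adjusted p = 0.0885, edgeR) or 2 (0.52, 0.0874), untreated knock-in library 1 (0.57, 0.0787) or 2 (0.47, 0.163), and the treated wild-type libraries 1 (0.52, 0.0716) and 2 (0.52, 0.0714). ESRP1 and EPCAM therefore differed between the untreated lines in opposite directions, of which that of ESRP1 was called.

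ZEB1, a repressor of epithelial genes (chromosome 10, 31318495 to 31529814), had 9.67 and 9.53 CPM in treated knock-in, 12.5 and 11.4 CPM in untreated knock-in, 5.76 and 8.49 CPM in treated wild-type and 6.53 and 6.76 CPM in untreated wild-type cells. Every knock-in library stood above every wild-type library, but neither difference was called (0.43 ± 0.22, adjusted p = 0.406, with IFN-γ and 0.84 ± 0.23, adjusted p = 0.0516, without it, edgeR). The untreated difference was called by DESeq2 (0.86, adjusted p = 0.0366), with no filter on low counts (0.85, 0.025), with at least 50 counts in 2 libraries (0.84, 0.0464), with the replicate number as a block (0.84, 0.0471) and without untreated wild-type library 2 (0.87, 0.0465).

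SNAI2, the repressor Slug, had 0 and 0 counts in treated knock-in, 2 and 0 in untreated knock-in, 3 and 11 in treated wild-type and 3 and 0 in untreated wild-type cells. Its counts were 0 in both treated knock-in libraries and 14 over both treated wild-type libraries, 11 of them in library 2, and a count of 0 in a treated knock-in library allows up to 0.110 CPM in library 1 and 0.120 CPM in library 2. CDH2, N-cadherin, had 1 count in untreated knock-in library 2, at 0.0410 CPM, and 0 in the other 7 libraries. In those 7 a count of 0 allows up to 0.110 to 0.167 CPM (3 counts, for counting error only). The N-cadherin transcript was not detectable above that level in either line.

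**Figure D3:**
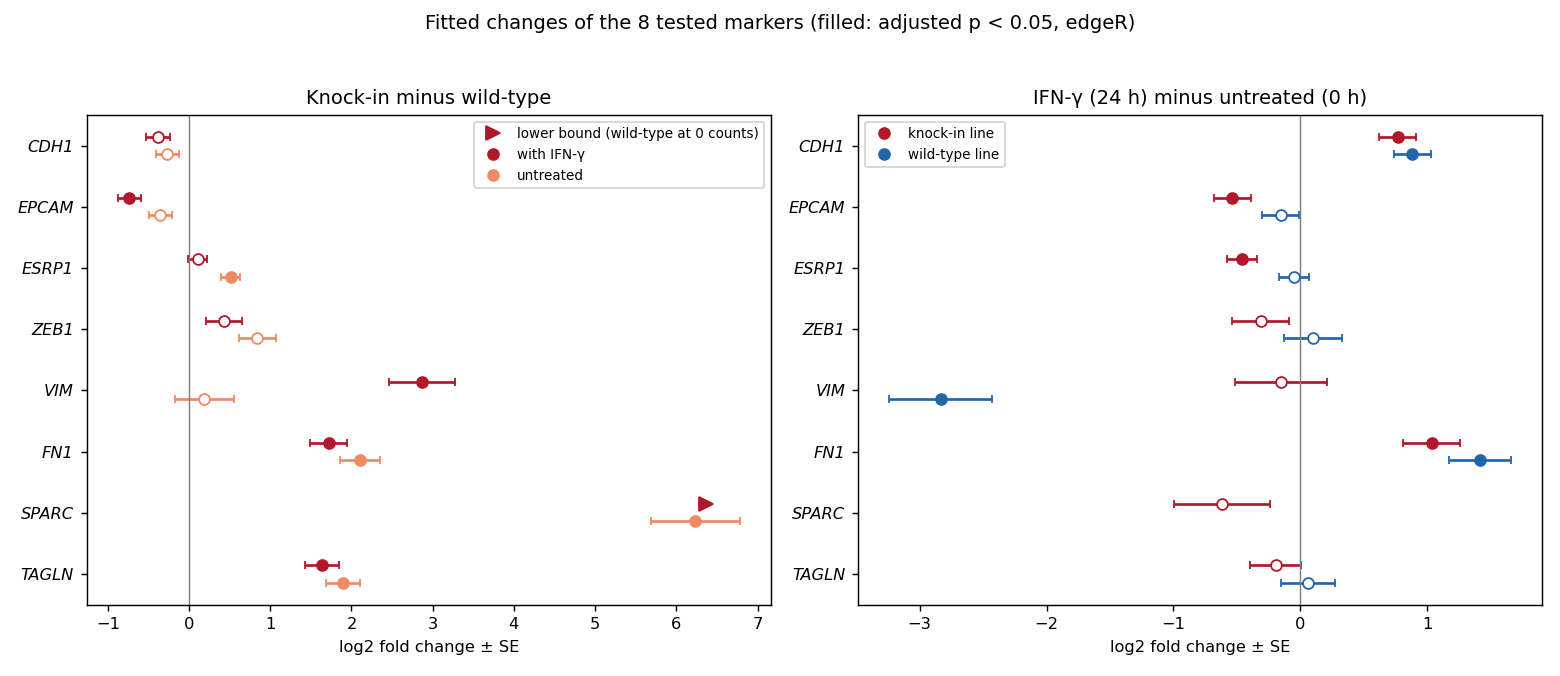
Fitted log2 fold changes of the 8 tested genes with their standard errors. The left panel sets knock-in against wild-type cells with IFN-γ (dark) and untreated (light), and the right panel sets IFN-γ-treated against untreated cells in the knock-in (red) and wild-type (blue) line. Filled points passed the adjusted p threshold, the triangle is the lower bound for SPARC (log2 of 82.1, which is 6.36), and SPARC, which passed the filter through the knock-in libraries alone, is not drawn for the wild-type response, where it had 0 counts in both treated libraries. The untreated SPARC point in the left panel is filled but is not read as a call.

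Lists of genes with the same roles gave the wider setting. Of all tested genes 1.63% were called higher and 1.28% lower in knock-in cells with IFN-γ, and 4.26% and 4.17% without it. Of 36 epithelial genes, all tested, 0 were called higher and 6 lower in knock-in cells with IFN-γ, with a median log2 difference of −0.11 against −0.01 over all tested genes. Without IFN-γ 3 were called higher and 6 lower, with a median of −0.33 against −0.02. At an unadjusted p under 0.05 there were 14 of the 36 genes with and 19 without IFN-γ, beside 2562 and 4458 of all 16519 genes. DESeq2 called 3 of the 36 higher and 7 lower with IFN-γ, beside 475 and 406 of all genes. Without IFN-γ it called 4 higher and 8 lower, beside 1075 and 1216. Without both knock-in replicate 2 libraries 0 were called higher and 2 lower with IFN-γ, and 0 in either direction without it by edgeR. With the GC and length trend removed 1250 of all tested genes were called higher and 1271 lower without IFN-γ, and under spike-in scaling 150 and 517. The epithelial counts without IFN-γ were 6 higher and 12 lower with the trend removed (median −0.12) and 0 and 3 under spike-in scaling (median −0.66). Single libraries moved them too, to 0 higher and 1 lower without untreated knock-in library 2, 3 and 17 without untreated wild-type library 2, and 4 and 3 without untreated wild-type library 1, where the median was −0.0477. With IFN-γ they were 0 and 1 without treated knock-in library 1 or treated wild-type library 2, and 3 and 9 with the trend removed.

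Without IFN-γ the epithelial genes called higher in knock-in cells were keratin 18 (KRT18, 0.77 ± 0.16, adjusted p = 0.0199, edgeR), keratin 8 (KRT8, 0.51 ± 0.13, 0.0421) and ESRP1. All of these calls were lost under spike-in scaling and without untreated knock-in library 1 or 2. The calls of ESRP1 and of KRT18 or KRT8 were also lost in each fit that left out a treated library. The largest falls of the epithelial list in knock-in cells were those of EHF and MAL2 in both comparisons. EHF, an ETS family transcription factor of epithelia, had 35.8 and 36.6 CPM in treated knock-in, 83.4 and 75.01 CPM in untreated knock-in, 121.4 and 119.2 CPM in treated wild-type and 152.9 and 193.8 CPM in untreated wild-type cells. EHF fell in knock-in cells by 1.73 on the log2 scale with IFN-γ (adjusted p = 0.000356, edgeR) and by 1.13 without it (adjusted p = 0.00261; not called without both knock-in replicate 2 libraries, at −1.05 and 0.077). MAL2, a protein of apical transport, fell by 1.32 with IFN-γ (adjusted p = 0.00541, edgeR; not called without treated knock-in library 1, at −1.24 and 0.0801, or with treated wild-type library 2 left out, at −1.28 and 0.0604) and by 1.05 without it (adjusted p = 0.0115; not called without untreated knock-in library 2, at −0.85 and 0.0848). GRHL2, an epithelial transcription factor (−0.93, adjusted p = 0.04, edgeR), and the lipid enzyme gene CDS1 (−0.91, 0.00795) were also lower in treated knock-in than in treated wild-type cells.

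Both lost their call under spike-in scaling (GRHL2 −0.98, adjusted p = 0.183, and CDS1 −0.98, 0.107, edgeR) and in each fit that left out a treated library. Without treated knock-in library 1 or 2 and treated wild-type library 1 or 2, GRHL2 stood at −1.16 (adjusted p = 0.0867, edgeR), −0.72 (0.374), −1.01 (0.15) and −0.84 (0.271), and CDS1 at −0.93 (0.108), −0.89 (0.132), −0.85 (0.0965) and −0.97 (0.0651). GRHL2 was also not called without untreated knock-in library 1 (−0.92, 0.0642) or 2 (−0.92, 0.0649). Without IFN-γ the transcription factor OVOL1 (−1.01, adjusted p = 0.0401, edgeR) and ST14, the membrane protease matriptase (−0.94, 0.0427), fell. OVOL1 held its call in 1 of 8 fits that left out a library, the one without untreated wild-type library 2, and ST14 in 2 of 8, those without untreated wild-type library 2 or untreated knock-in library 1. Without untreated wild-type library 1 the differences were −0.64 for OVOL1 (adjusted p = 0.154, edgeR) and −0.62 for ST14 (0.199). Under spike-in scaling neither was called (OVOL1 −1.38, adjusted p = 0.0574, and ST14 −1.30, 0.0564, edgeR), and with the GC and length trend removed ST14 was at −0.52 (0.0103).

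Of 34 mesenchymal genes 27 were tested. With IFN-γ 4 were called higher, which were VIM, FN1, SPARC and TAGLN, and 1 lower in knock-in cells, where 1.63% of all tested genes were called higher and 1.28% lower. The median was 0.63 against −0.01 over all tested genes, and at an unadjusted p under 0.05 there were 10, beside 2562 of all 16519 genes. Without IFN-γ 5 were called higher and 1 lower, where 4.26% of all tested genes were called higher and 4.17% lower. The median was 0.19 against −0.02, with 10 at an unadjusted p under 0.05, beside 4458 of all genes. The calcium-binding protein S100A4 joined SPARC, FN1 and TAGLN there (0.65 ± 0.15, adjusted p = 0.0291, edgeR). It had 142.9 and 183.3 CPM in untreated knock-in and 104.8 and 103.2 CPM in untreated wild-type cells. S100A4 lost its call without untreated knock-in library 2, without both knock-in replicate 2 libraries and without untreated wild-type library 1. These counts hold the members already described, so they are not separate evidence. SPARC among them could only enter the test by being high in knock-in cells. The gene called lower in both was NT5E, the ecto-nucleotidase CD73, with 70.3 and 67.4 CPM in treated knock-in, 119.7 and 123.9 CPM in untreated knock-in, 138.9 and 144.3 CPM in treated wild-type and 236.1 and 266.8 CPM in untreated wild-type cells (−1.04 ± 0.12, adjusted p = 0.00216, with IFN-γ and −1.05 ± 0.12, adjusted p = 0.00168, without it, edgeR). Without both knock-in replicate 2 libraries the untreated difference of NT5E was −1.07 (adjusted p = 0.0562, edgeR).

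Of 13 transcription factors of the transition 8 were tested, and edgeR called 0 in either line comparison, with 1 with and 2 without IFN-γ at an unadjusted p under 0.05. DESeq2 called 0 with IFN-γ and 1 higher without it, which was ZEB1. Of 13 cadherins and catenins 7 were tested, and edgeR and DESeq2 called 0 in either comparison, with 1 at an unadjusted p under 0.05 in each. Over all 16519 tested genes 2562 with and 4458 without IFN-γ had an unadjusted p under 0.05, and DESeq2 called 881 and 2291.

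**Figure D4:**
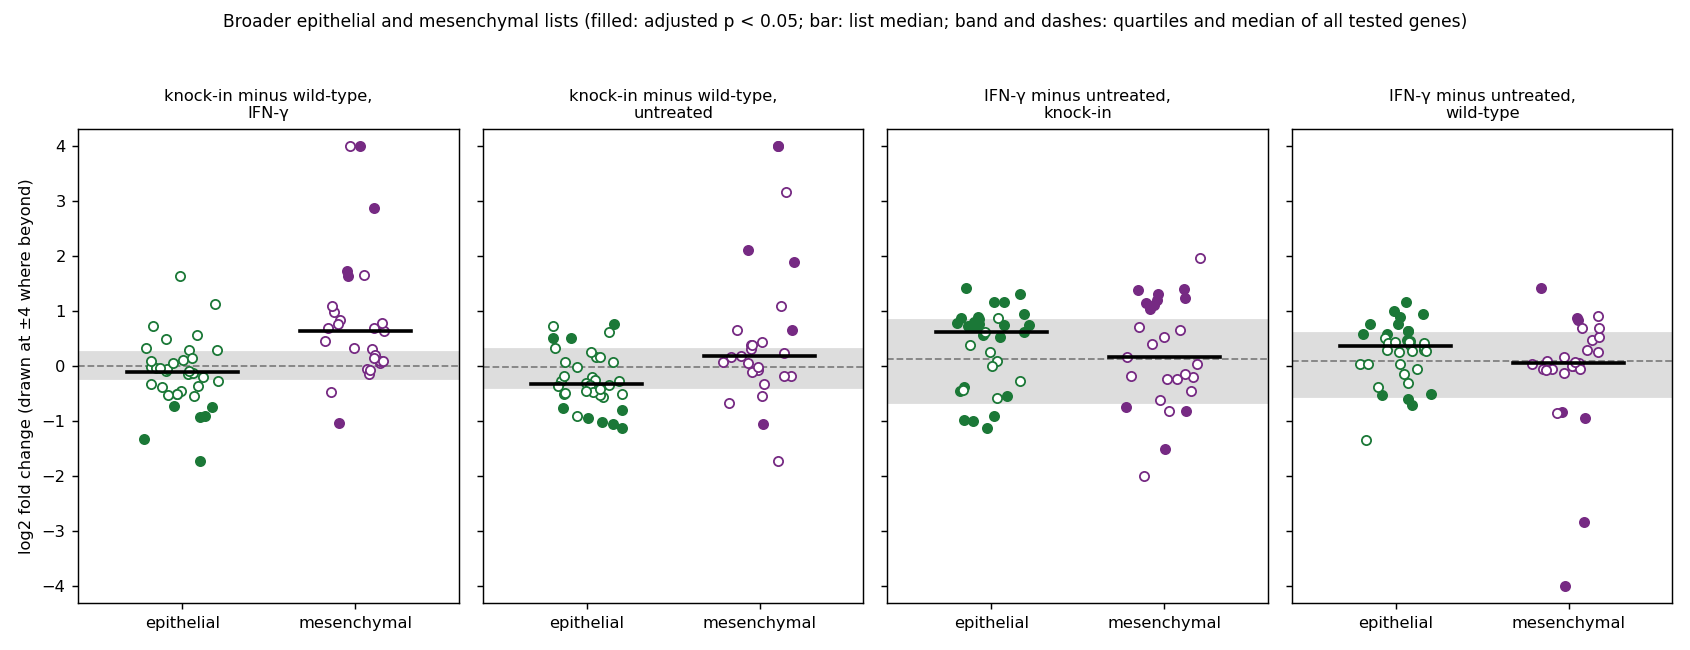
Log2 fold changes of the tested genes of the epithelial (36) and mesenchymal (27) lists in the 4 comparisons, 1 point per gene, filled where called and drawn at the edge where beyond ±4. The thick bar is the list median, and the grey band and dashed line are the quartiles and median of all 16519 tested genes. The epithelial median is −0.33 in the line comparison without IFN-γ, 0.62 in the knock-in and 0.36 in the wild-type response, against −0.12, 0.0833 and 0.13 with the GC and length trend removed.

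The response to IFN-γ was compared in each line. In knock-in cells CDH1 and FN1 were called higher and EPCAM and ESRP1 lower, where 26.4% of all tested genes were called higher and 25.8% lower. In wild-type cells CDH1 and FN1 were called higher and VIM lower, where 17.1% of all genes were called higher and 20.8% lower. SPARC was also called there, at counts near the floor in both wild-type groups, and is not read as a fall. Scaled to the spike-ins, 0 members were called higher and 3 lower in knock-in cells and 0 higher and 5 lower in wild-type cells. In that scaling 616 of 16519 genes were called higher and 5476 lower in knock-in cells and 233 higher and 6745 lower in wild-type cells, while the median over all tested genes moved to −0.41 in knock-in and −0.72 in wild-type cells, against 0.12 and 0.08 under trimmed-mean scaling. With the GC and length trend removed, 1 was called higher and 1 lower in knock-in and 4 higher and 2 lower in wild-type cells. Without both knock-in replicate 2 libraries 0 of the 9 members then tested were called in the knock-in response by edgeR.

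CDH1 rose with IFN-γ by 0.77 ± 0.15 on the log2 scale in knock-in (adjusted p = 0.00187, edgeR) and by 0.88 ± 0.14 in wild-type cells (adjusted p = 0.00178). With the GC and length trend removed the rises were 0.42 (adjusted p = 0.0139) and 0.60 (0.00378), both called. Under spike-in scaling they were 0.24 (adjusted p = 0.499) and 0.08 (0.841), neither called. FN1 rose by 1.04 ± 0.22 in knock-in (adjusted p = 0.00374, edgeR) and by 1.42 ± 0.25 in wild-type cells (adjusted p = 0.00226). With the trend removed FN1 was at 0.32 (adjusted p = 0.253) in knock-in and 0.86 (0.0194) in wild-type cells, and under spike-in scaling at 0.50 (0.219) and 0.59 (0.168).

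EPCAM fell by 0.54 in knock-in cells (standard error 0.14, adjusted p = 0.0117, edgeR) and was at −0.15 ± 0.14 in wild-type cells (adjusted p = 0.434). ESRP1 fell by 0.46 in knock-in cells (standard error 0.12, adjusted p = 0.00866, edgeR) and was at −0.05 ± 0.12 in wild-type cells (adjusted p = 0.763). Both directions turned with the GC and length trend removed, to 0.13 (adjusted p = 0.467) and 0.09 (0.521) in knock-in and 0.40 (0.0327) and 0.32 (0.0317) in wild-type cells. In knock-in cells EPCAM was not called without treated library 1 (−0.54, adjusted p = 0.0762) or 2 (−0.54, 0.0747) or untreated library 2 (−0.32, 0.116), nor ESRP1 without treated library 1 (−0.44, 0.0933) or 2 (−0.49, 0.0638) or untreated library 2 (−0.41, 0.0601). Under spike-in scaling the falls were called in both lines, at −1.07 and −0.96 for EPCAM and −0.99 and −0.84 for ESRP1 in knock-in and wild-type cells.

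VIM fell by 2.84 in wild-type cells (standard error 0.41, adjusted p = 0.001, edgeR), where both untreated and neither treated library carried plasma cell transcripts, so the treatment and that signal cannot be told apart. In knock-in cells VIM was at −0.15 ± 0.36 (adjusted p = 0.766, edgeR). In the knock-in libraries with little of the signal it stood at 18.3 CPM with and 21.95 CPM without IFN-γ. SPARC had 0 counts over both treated and 8 counts over both untreated wild-type libraries, 7 of them in untreated library 2, and no change is read from them. In knock-in cells SPARC was not called (−0.62 ± 0.38, adjusted p = 0.212, edgeR), except without untreated wild-type library 1 (−0.69, 0.0336). Neither were TAGLN (−0.19 ± 0.20, adjusted p = 0.458, edgeR; −0.62 and called, 0.0288, with the GC and length trend removed) and ZEB1 (−0.31 ± 0.22, 0.28; −0.84 and called, 0.0241, under spike-in scaling). In wild-type cells TAGLN (0.06 ± 0.21, adjusted p = 0.841, edgeR) and ZEB1 (0.10 ± 0.23, 0.762; −0.72 and called, 0.0445, under spike-in scaling) were not called.

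**Figure D5:**
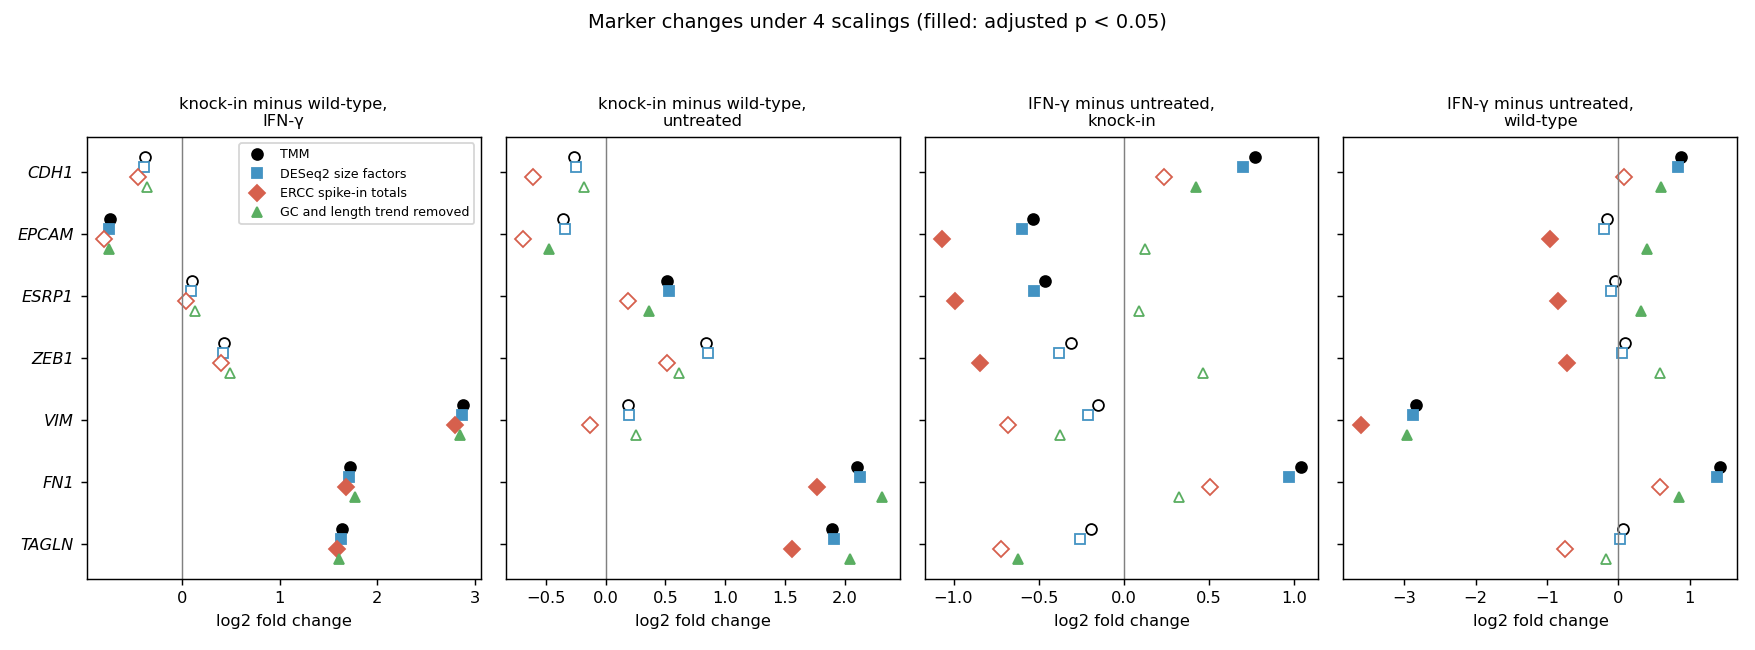
Log2 fold changes of 7 tested genes under trimmed-mean scaling, DESeq2 size factors, spike-in totals and with the trend on GC content and transcript length removed, filled where the adjusted p was under 0.05. In the line comparison with IFN-γ the 4 values of each gene lie close together, while in the responses to IFN-γ EPCAM, ESRP1 and ZEB1 lie on both sides of 0. TAGLN does so in the wild-type response. SPARC is left out because a group had 0 counts.

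The epithelial list had 20 genes called higher and 7 lower with IFN-γ in knock-in cells (median 0.62 against 0.12 over all tested genes) and 11 higher and 4 lower in wild-type cells (0.36 against 0.08). Over all tested genes 26.4% were called higher and 25.8% lower in knock-in and 17.1% and 20.8% in wild-type cells. With the GC and length trend removed the epithelial counts were 8 and 8 in knock-in (median 0.0833) and 8 and 1 in wild-type cells (0.13), and under spike-in scaling 0 and 9 in each. Without both knock-in replicate 2 libraries they were 2 and 4 in knock-in and 9 and 2 in wild-type cells. The wild-type counts were 5 and 4 without untreated wild-type library 2 (median 0.14), 18 and 6 without untreated library 1, 5 and 1 without treated library 1 and 4 and 0 without treated library 2. The knock-in counts were 12 and 4 without treated knock-in library 1 or 2 and 12 and 5 without untreated knock-in library 2. The largest changes of the epithelial list in knock-in cells were rises of the splicing regulator ESRP2 (1.41 ± 0.25, adjusted p = 0.00139, edgeR), the junction protein plakoglobin (JUP, 1.16 ± 0.25, 0.00352) and ST14 (1.16 ± 0.24, 0.00287) and a fall of EHF (−1.13 ± 0.15, 0.00032). In wild-type cells they were rises of keratin 18 (KRT18, 1.17 ± 0.16, adjusted p = 0.000771, edgeR), ESRP2 (1.00 ± 0.25, 0.0114), JUP (0.94 ± 0.25, 0.0162) and CDH1.

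With the trend removed ESRP2 was at 0.40 in knock-in and 0.38 in wild-type cells (adjusted p = 0.0591 and 0.0751, edgeR), JUP at 0.11 and 0.34 (0.493 and 0.054) and ST14 at 0.07 in knock-in cells (0.648), none of them called. In wild-type cells ESRP2 was not called without treated library 2 (0.94, 0.0643) or untreated library 2 (0.74, adjusted p = 0.0632, edgeR), and JUP lost its call when treated library 1 was left out (0.83, 0.0973) or untreated library 2 was (0.59, 0.053). ESRP2 had 44.7 and 43.0 CPM in treated knock-in, 20.5 and 12.6 CPM in untreated knock-in, 59.4 and 64.7 CPM in treated wild-type and 37.2 and 24.8 CPM in untreated wild-type cells. In CPM it was lowest in untreated knock-in cells, where its paralog ESRP1 was highest, while in TPM ESRP1 was not highest there. Without both knock-in replicate 2 libraries JUP (0.90, adjusted p = 0.105, edgeR) and ST14 (0.93, 0.0581) were not called in knock-in cells. Scaled to the spike-ins, ESRP2 (0.88, adjusted p = 0.0686, edgeR), JUP (0.63, 0.203) and ST14 (0.62, 0.161) were not called in knock-in cells, nor KRT18 (0.33, 0.285), ESRP2 (0.16, 0.743) and JUP (0.0976, 0.859) in wild-type cells.

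The mesenchymal list had 8 genes called higher and 3 lower with IFN-γ in knock-in cells (median 0.16 against 0.12 over all tested genes) and 3 higher and 4 lower in wild-type cells (0.06 against 0.08), where 26.4% and 25.8% of all tested genes were called in knock-in and 17.1% and 20.8% in wild-type cells. With the trend removed the counts were 3 and 5 in knock-in and 2 and 4 in wild-type cells, and under spike-in scaling 0 and 4 and 0 and 9. In knock-in cells the calcium-binding protein S100A4 fell (−1.51 ± 0.15, adjusted p = 0.000174, edgeR), and the adhesion molecule L1CAM (1.39 ± 0.37, 0.0103) and the receptor kinase AXL (1.23 ± 0.22, 0.00127) rose. Under spike-in scaling L1CAM (0.86, adjusted p = 0.19, edgeR) and AXL (0.70, 0.116) were not called, and L1CAM was also not called with the trend removed (0.25, 0.511) or without untreated knock-in library 2 (0.99, 0.0777). In wild-type cells S100A4 fell (−0.94 ± 0.15, adjusted p = 0.00146, edgeR; −0.01 with the trend removed). The collagen gene COL6A1 rose in wild-type cells (0.88 ± 0.27, adjusted p = 0.0283, edgeR), but it was at 0.18 (0.291) with the trend removed and 0.0466 (0.938) under spike-in scaling, and lost its call without treated library 1 (0.75, 0.145) or 2 (0.99, 0.0641) or untreated library 2 (0.57, 0.147).

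Among the transcription factors, edgeR called 2 of 8 higher in knock-in cells, where 26.4% of all tested genes were, and 0 in wild-type cells. In wild-type cells 1 had an unadjusted p under 0.05, beside 7891 of 16519 genes, and DESeq2 called 1 higher, beside 2812. The 2 called in knock-in cells were TCF3, which encodes the E2A proteins (1.27 ± 0.24, adjusted p = 0.00199, edgeR), and SNAI1, the repressor Snail (0.84 ± 0.28, 0.0312). TCF3 was at 0.13 (adjusted p = 0.386, edgeR) and SNAI1 at 0.53 (0.152) with the trend removed, and at 0.74 (0.121) and 0.31 (0.553) under spike-in scaling. SNAI1 was not called without treated knock-in library 1 (0.89, adjusted p = 0.0992, edgeR) or 2 (0.78, 0.144) or untreated knock-in library 2 (0.66, 0.177), nor by DESeq2 (0.77, 0.0773).

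Of the cadherins and catenins, 7 of 13 were tested, and 3 were called higher and 2 lower in knock-in and 2 higher and 2 lower in wild-type cells, beside the same shares of all genes. The actin-linking catenin CTNNA1 fell by 1.53 in knock-in cells (adjusted p = 0.000279, edgeR), with 85.4 and 90.6 CPM in treated and 198.9 and 310.8 CPM in untreated libraries, and by 0.92 in wild-type cells (0.00486), with 95.7 and 96.8 CPM in treated and 186.0 and 179.4 CPM in untreated libraries. Beta-catenin (CTNNB1) fell by 0.62 in knock-in (adjusted p = 0.00153, edgeR) and by 0.42 in wild-type cells (0.0165). The fall of CTNNB1 was not called with the trend removed in knock-in (−0.19, adjusted p = 0.123, edgeR) or wild-type cells (−0.17, 0.194), and in wild-type cells also not without treated knock-in library 2 (−0.43, 0.0507) or either treated wild-type library (−0.41 and 0.117 without library 1, −0.44 and 0.0887 without library 2). P-cadherin (CDH3) rose in knock-in cells (0.85 ± 0.19, adjusted p = 0.00489, edgeR; −0.01 with the trend removed and 0.32, not called, under spike-in scaling), with 179.7 and 173.6 CPM in treated and 99.2 and 96.5 CPM in untreated libraries. The catenin p120 (CTNND1) rose in wild-type cells (0.47 ± 0.11, adjusted p = 0.00985, edgeR), but was at 0.20 (0.0908) with the trend removed and −0.34 under spike-in scaling, and lost its call without either treated library of that line (0.50 and 0.0571 without library 1, 0.43 and 0.0883 without library 2).

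The difference between the responses, knock-in minus wild-type, was tested as an interaction. edgeR called 0 of the 8 tested members and 0 of 16519 genes (0% called), of which 3 members and 1119 genes had an unadjusted p under 0.05, and DESeq2 called 4 genes, VIM among them (2.68, adjusted p = 0.00159). With no filter on low counts edgeR called VIM as well (2.68, adjusted p = 3.57e-15) among 267 genes. By edgeR VIM differed by 2.69 ± 0.54 (adjusted p = 0.688), with plasma cell transcripts in both untreated wild-type libraries, neither treated wild-type library and 1 library of each knock-in group. EPCAM differed by −0.38 ± 0.20 (adjusted p = 0.688, edgeR), ESRP1 by −0.41 ± 0.17 (0.688), ZEB1 by −0.41 ± 0.32 (0.715), FN1 by −0.38 ± 0.33 (0.732), TAGLN by −0.26 ± 0.29 (0.793) and CDH1 by −0.12 ± 0.20 (0.876). For the other members a response that passed the threshold in 1 line only is not shown to differ between the lines, and for VIM the call depends on the tool and the filter.

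Among 10877 named genes with a mean of at least 5 CPM, the ones whose log2 levels followed each member most closely over the 8 libraries were listed as a description. The libraries fall into 4 groups, so genes that separate the same groups score alike. SPARC was followed by MAGEB1, DENND5B and SLC2A3 (Pearson r 1.00, 0.99 and 0.99), with SLC2A3 at 84.6 and 73.7 CPM in treated knock-in, 90.0 and 90.9 CPM in untreated knock-in, 3.24 and 2.61 CPM in treated wild-type and 5.15 and 4.91 CPM in untreated wild-type cells. TAGLN was followed by ATOX1, F3 and PMM1 (r 0.99 each), FN1 by COPA, TINAGL1 and SYNM (0.99, 0.98 and 0.98) and ZEB1 by TRIM6, ZMAT5 and SLC2A12 (0.97, 0.97 and 0.96). The gene closest to VIM was CORO1A, which is in the leukocyte list (r 0.95), with 5.90 and 17.6 CPM in treated knock-in, 7.35 and 16 CPM in untreated knock-in, 2.10 and 2.98 CPM in treated wild-type and 11.7 and 13.48 CPM in untreated wild-type cells, followed by C11orf80 and MRPL53 (0.95 and 0.93). CDH1 was followed by TRAPPC9, SH3RF1 and ZNF398 (1.00, 0.99 and 0.99), EPCAM by GDE1, PM20D2 and NCBP2AS2 (0.98, 0.97 and 0.96) and ESRP1 by ZNF430, ZNF766 and SOS2 (0.99, 0.99 and 0.98).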

How the data were processed

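rRNA-depleted total RNA of 8 libraries, 2 in each of 4 groups, was measured. Per the submitters' processing notes, Trimmomatic and kallisto were used with GRCh38, with no version or annotation given in the sources used here. In the deposited table stand the authors' estimated counts per Ensembl gene ID and for 63 ERCC spike-ins, and 58.3% of nonzero gene values are not whole (tolerance 1e-06). The 40295 gene IDs were matched to symbols (35583 named), positions, length and GC content from GENCODE release 29 and the symbol table. Promoter sequences are from RefSeq (GRCh38.p14).

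Estimated counts were rounded and spike-ins left out. A low-count filter (edgeR's filterByExpr, minimum count 10) left 16519 genes (4 residual degrees of freedom), which were scaled by trimmed mean of M-values (factors 0.86 to 1.13; CPM are relative to these) and tested with edgeR 4.0.16 in R 4.3.3 by the quasi-likelihood F test with group as the factor, all 8 libraries and Benjamini-Hochberg adjustment (called below 0.05). The common dispersion was 0.0415, a coefficient of variation of 20.4%. Standard errors are the size of the log2 fold change over the root of F. Counting intervals are exact binomial at 95%, floors are 3 counts per library, and both cover counting error only. The fit was tested on simulated data.

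Alternatives were DESeq2's size factors, spike-in totals, DESeq2 1.42.0, other filters, a replicate block, a fit corrected for GC content and transcript length (loess per library, span 0.3, GC known for 92.4% of tested genes), and leaving out libraries. The members and lists were chosen with earlier results of these data known. KRT18, KRT8 and S100A4 are named in the line comparison without IFN-γ beside the following rule. Named genes are the 10 members, the 4 called genes with the largest change per list and comparison among those with at least 5 CPM in a group, and the 3 genes most like each member with a mean of at least 5 CPM (Pearson r of log2(CPM + 0.5)). A gene that this rule names is not reported here.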

Additional observations from a re-analysis of the deposited data

How the results depend on the processing

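In all, 8 of the 10 genes could be tested, and CDH2 and SNAI2, which did not pass the low-count filter, are given by their counts. The counts of genes called over the whole table moved with the processing. For the line difference without IFN-γ 1392 genes were called, against 667 under spike-in scaling, 2291 by DESeq2, 2959 with no filter, 2521 with the GC and length trend removed and 250 without both knock-in replicate 2 libraries, and 406 to 4815 when 1 library was left out. For the line difference with IFN-γ 481 were called, against 195, 881, 1227, 1393 and 118 in the same order, and 147 to 1111 with 1 library left out. The wild-type response had 6256, against 3747 with the trend removed, and 3266 to 7796 with 1 library left out. The knock-in response had 8613, against 4805 with the trend removed and 3523 without both knock-in replicate 2 libraries, and 6327 to 9322 with 1 library left out. The difference between the responses had 0, against 4 by DESeq2, 267 with no filter and 5 without both knock-in replicate 2 libraries, and 0 to 2 with 1 library left out.

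Reversed values were those of VIM without IFN-γ in the line comparison (−0.13 under spike-in scaling, −0.32 without both knock-in replicate 2 libraries, −0.32 to 0.56 with 1 library left out), and in the wild-type response those of EPCAM (0.40) and ESRP1 (0.32) with the trend removed, ZEB1 (−0.72), TAGLN (−0.75) and CTNND1 (−0.34) under spike-in scaling and TAGLN with the trend removed (−0.18). In the wild-type response with 1 library left out ESRP1 ranged from −0.17 to 0.01, ZEB1 from −0.20 to 0.35 and TAGLN from −0.013 to 0.135. In the knock-in response EPCAM (0.13), ESRP1 (0.0869), ZEB1 (0.47) and CDH3 (−0.0058) reversed with the trend removed and TAGLN (0.11) without both replicate 2 libraries, and with 1 library left out VIM ranged from −0.78 to 0.36 and TAGLN from −0.42 to 0.0738. In the difference between the responses CDH1 (0.16) and TAGLN (0.027) reversed under spike-in scaling and TAGLN (0.0456) without both replicate 2 libraries, with −0.48 to 0.01 for TAGLN when 1 library was left out. The cause was not tested. 

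Correlations of the deviations of same-numbered replicates from their group means lay between 0.012 and 0.281 over 6 pairs of groups, with 0.281 between the knock-in groups, whose replicate 2 libraries share the plasma cell signal. Not every pair passed 0.1, so the numbers were not taken to pair the samples. With the replicate number as a block, 523 genes differed between the treated and 1849 between the untreated lines, knock-in cells had 8725 and wild-type cells 6765 responding genes, and their difference had 0. In that fit ZEB1 without IFN-γ was the 1 member whose call changed.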
